A study of Mus musculus with 8 samples.

Results

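The genes described here are 7 enzymes of cholesterol synthesis, *Hmgcs1*, *Idi1*, *Fdft1*, *Sqle*, *Lss*, *Cyp51* and *Dhcr7*. They were chosen by name, and all 7 were found by Ensembl gene ID among the 49585 genes of a table of RNA-seq read counts aligned to the C57BL/6J genome. All 7 passed the filter on low counts, which left 23113 genes to test. Their expression was compared between the brains of newborn mice whose mothers drank water with or without cadmium (Cd).

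The brains came from 8 female F1 pups at postnatal day 1, each with a C57BL/6J (B) mother and a CAST/EiJ (C) father and each from a different litter. The mothers of 4 pups received drinking water with 0 ppm CdCl2 and those of the other 4 received 50 ppm, from before mating through gestation until birth. Poly(A) RNA of the homogenized whole brain was sequenced on 1 strand-specific library per pup, with 22916434 to 30708087 counted reads per library. The control and exposed libraries are named here F1 0ppm and F1 50ppm replicates 1 to 4, and the numbers serve only as names. Expression is given in CPM (a gene's reads divided by the library size in units of 1000000 reads, after TMM normalization), and a positive log2 fold change means higher at 50 ppm.

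Cholesterol is built from acetyl-CoA. The enzymes up to farnesyl diphosphate also feed other isoprenoids, and those from squalene onward make only sterols. The brain makes nearly all of its own cholesterol, because lipoproteins do not cross the blood-brain barrier. Oligodendrocytes use large amounts of it for myelin, and astrocytes supply it to neurons on particles that carry ApoE. When sterols in the endoplasmic reticulum run low, the transcription factor SREBP2 (encoded by *Srebf2*) is released and activates most enzymes of the pathway together, by binding sterol regulatory elements in their promoters beside the factor NF-Y, which binds CCAAT boxes.

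The promoter of *Hmgcs1* is shown because it held both kinds of element. The 150 bases before its annotated start (RefSeq, GRCm38.p6, chr13:119690201-119690350, plus strand) carry in capitals a match to the sterol regulatory element TCACNCCAC, whose first base lies 137 bases before the start, and a CCAAT box read on the opposite strand.
Hmgcs1: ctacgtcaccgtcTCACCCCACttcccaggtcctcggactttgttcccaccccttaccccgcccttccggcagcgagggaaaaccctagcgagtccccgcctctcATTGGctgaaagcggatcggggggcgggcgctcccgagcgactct
Promoter windows of 300 bases (250 before the start and 50 after) were found for 5 of the 7 genes (*Hmgcs1*, *Idi1*, *Lss*, *Cyp51* and *Dhcr7*) and not for *Fdft1* or *Sqle*. Where RefSeq listed more than 1 start, the window at the 5′-most was taken. On both strands, TCACNCCAC was found only in *Hmgcs1* among these 5, against 1.22% of the 27025 genes with a window. CCAAT was found in 4 of the 5 and in 13 of the 15 pathway enzymes with a window, against 38.0% of all genes. The GC box GGGCGG was found in all 5 and in 14 of the 15 enzymes, against 35.9% of all genes. *Dhcr7* was the member without CCAAT. The CCAAT matches nearest to the start of the other 3 members are shown with 12 bases on each side and the match in capitals, which reads ATTGG where it lies on the strand opposite to the gene.
Idi1, chr13:8885580-8885608, plus strand, GRCm38.p6: gtccaaggtgccATTGGctggcgaccgac
Lss, chr10:76531531-76531559, plus strand, GRCm38.p6: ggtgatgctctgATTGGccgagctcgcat
Cyp51, chr5:4104710-4104738, minus strand, GRCm38.p6: cgctgtccgccaCCAATctggtcctgaga
The starts used here are those of RefSeq. By the gene coordinates given below, which come from GENCODE, the *Idi1* and *Cyp51* matches shown lie inside the gene. These matches are descriptions of letters in a window, and binding was not measured.

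Before the comparison, 2 features of the control libraries need to be stated. F1 0ppm replicate 2 stood apart for the sterol enzymes, as described gene by gene below. In addition, F1 0ppm replicates 1 and 2 held few reads of the hindbrain and spinal cord markers (7 tested genes such as *Hoxb3*), with a summed level of 0.341 and 3.24 CPM, against 36.5 to 113 CPM in the other 6 libraries, although all 8 are labelled whole brain. Forebrain markers summed to 850.1 and 816 CPM in these libraries and to 493 to 713 CPM in the other 6. Neuron markers were abundant in all 8 libraries (4165 to 5002 CPM for the sum of 7 genes). The comparisons below use all 8 libraries unless a value is said to be without F1 0ppm replicate 2 or with F1 0ppm replicates 3 and 4 as the only controls. Both of these smaller comparisons leave out F1 0ppm replicate 2, which was set apart because it was low for these same enzymes. Lower log2 fold changes of the enzymes without that library follow from this choice.

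For none of the 7 genes was a difference between F1 50ppm and F1 0ppm brains detected. No member passed an adjusted p of 0.05 (quasi-likelihood test of edgeR, adjusted by Benjamini-Hochberg over the 23113 genes, adjusted p = 0.999 for each), and none had an unadjusted p under 0.05. Over all genes tested, 0.0173% passed the adjusted threshold and 3.75% the unadjusted one. The groups overlapped for all 7 members, while 2.09% of all genes tested had groups that did not overlap. The log2 fold changes of the members lay between -0.08 and 0.00, with a median of -0.03, and the median over all genes was 0.00. Their 95% intervals together ran from 0.812-fold to 1.17-fold, from the lower end for *Idi1* to the upper end for *Hmgcs1*. The narrowest were those of *Cyp51* (0.877-fold to 1.09-fold) and *Dhcr7* (0.874-fold to 1.08-fold). In these bulk samples, fewer cells of a type and less RNA per cell cannot be told apart.

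**Figure D1:**
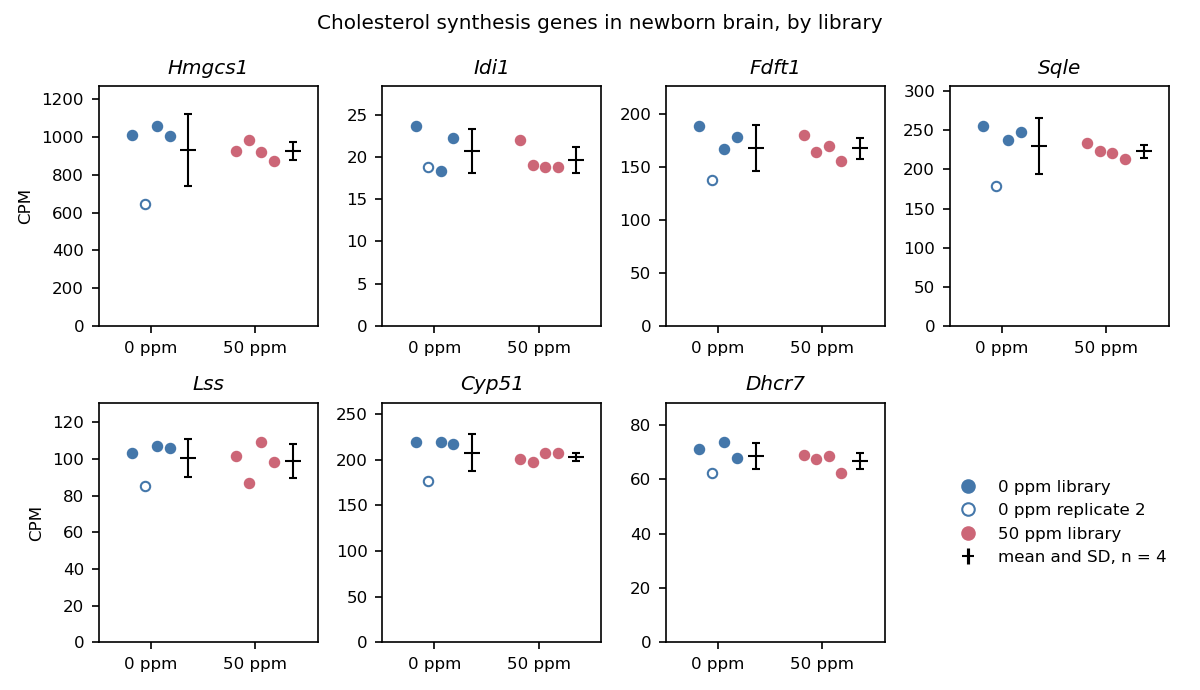
Expression of the 7 cholesterol synthesis genes in CPM (y axes, from 0) in the 4 F1 0ppm (blue) and 4 F1 50ppm (red) brains, 1 point per library, with mean and SD (n = 4). The open circle, F1 0ppm replicate 2, is the lowest of the 8 libraries in every panel but *Idi1*, and the groups overlap in all panels.

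*Hmgcs1* (ENSMUSG00000093930, chr13:119690379-119708260, plus strand, GRCm38) encodes the cytosolic synthase that makes HMG-CoA early in the pathway. Its levels in F1 0ppm replicates 1 to 4 were 1011, 648, 1060 and 1005 CPM. In F1 50ppm replicates 1 to 4 they were 927, 984, 923 and 873 CPM. A single control lay far below the other 7 libraries, and the exposed brains lay between this control and the other 3. The mean was 931 ± 190 CPM (SD, n = 4) in controls and 927 ± 45.4 CPM in exposed brains, a log2 fold change of -0.01 (SE 0.11, 95% interval -0.24 to 0.23). Without F1 0ppm replicate 2 all 3 controls were above all 4 exposed brains, the control mean was 1025 ± 29.9 CPM (n = 3), and the log2 fold change was -0.15 (SE 0.06, unadjusted p = 0.0357 in edgeR's test, adjusted p = 1.00). With F1 0ppm replicates 3 and 4 as the only controls it was -0.16 (SE 0.07, unadjusted p = 0.0434, adjusted p = 0.998).

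*Idi1* (ENSMUSG00000058258, chr13:8885501-8892451, plus strand) encodes the isomerase that turns isopentenyl diphosphate into dimethylallyl diphosphate, the starter of isoprenoid chains. It was at 23.7, 18.8, 18.3 and 22.2 CPM in the 4 controls and at 22.0, 19.1, 18.8 and 18.8 CPM in the 4 exposed brains. High and low libraries occurred in both groups, and F1 0ppm replicate 3, not replicate 2, was the lowest. Its log2 fold change of -0.08 (SE 0.11, 95% interval -0.30 to 0.15) was the most negative of the 7 and was smaller than its standard error. *Idi1* had 427 to 693 reads per library, the fewest of the members, and 22.6% of its longest transcript is shared at 95% identity or more with *Gm13502* and *Gm35570*, so its count is uncertain to that extent.

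*Fdft1* (ENSMUSG00000021273, chr14:63145150-63179578, minus strand) encodes squalene synthase, the first enzyme committed to sterols. Its levels were 189, 138, 167 and 178 CPM in controls and 180.2, 164, 169.9 and 156 CPM in exposed brains. All 4 exposed brains lay within the range of the controls. The log2 fold change was 0.00 (SE 0.09, 95% interval -0.18 to 0.18). *Ctsb* lies on the opposite strand over 18.3% of its exons, and the strand setting of the counting is not given in the sources used here. At 95% identity or more, 54.7% of the longest *Fdft1* transcript is shared with *Ctsb* or *Gm6781*. The *Fdft1* count is uncertain to that extent. *Ctsb* itself was at 265 to 299 CPM in controls and 277 to 319.5 CPM in exposed brains, and was not low in F1 0ppm replicate 2 (291 CPM).

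*Sqle* (ENSMUSG00000022351, chr15:59315077-59331192, plus strand) encodes squalene epoxidase, a rate-limiting enzyme of the sterol steps. It was at 255, 178, 238 and 248 CPM in controls and at 234, 223, 221 and 214 CPM in exposed brains. The exposed brains were again close together, between 1 low control and 3 higher ones. The log2 fold change was -0.04 (SE 0.09, 95% interval -0.24 to 0.15) with all libraries and -0.15 (SE 0.07, unadjusted p = 0.0389, adjusted p = 1.00 in edgeR's test) without F1 0ppm replicate 2.

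*Lss* (ENSMUSG00000033105, chr10:76531588-76557138, plus strand) encodes the cyclase that closes the sterol rings to give lanosterol. Its values were 104, 85.1, 107 and 106 CPM in controls and 102, 86.9, 109 and 98.4 CPM in exposed brains. Each group held 1 low library, which placed the highest and the second lowest value of all 8 in the exposed group. The log2 fold change was -0.02 (SE 0.09, 95% interval -0.20 to 0.16).

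*Cyp51* (ENSMUSG00000001467, chr5:4081145-4104746, minus strand) encodes the demethylase that acts on lanosterol. Its levels were 219, 177, 219 and 217 CPM in controls and 200.5, 197, 207 and 207 CPM in exposed brains. The 3 upper controls were nearly equal (coefficient of variation 0.530%), and F1 0ppm replicate 2 was below all 7 other libraries. The log2 fold change was -0.03 (SE 0.07, 95% interval -0.19 to 0.12), and -0.10 (SE 0.06, 95% interval -0.24 to 0.03) without that library.

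*Dhcr7* (ENSMUSG00000058454, chr7:143823145-143848410, plus strand) encodes the reductase of the last step, whose loss causes Smith-Lemli-Opitz syndrome. It was at 70.9, 62.3, 73.4 and 67.7 CPM in controls and at 68.8, 67.2, 68.5 and 62.4 CPM in exposed brains. F1 0ppm replicate 2 and F1 50ppm replicate 4 were nearly equal and lowest. The log2 fold change was -0.04 (SE 0.07, 95% interval -0.19 to 0.12). A two-sided exact permutation of the library labels on log2 CPM, whose smallest possible p with 4 against 4 is 0.0286, gave p between 0.571 and 1.00 for the 7 members.

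Per kilobase of annotated exon, the members differed far more from each other than between groups. *Hmgcs1* was the highest, with 203 ± 41.4 CPM per kb in controls (SD, n = 4), and ranked 89 among 23042 genes by its mean over all 8 libraries. *Cyp51* (47.0 ± 4.66), *Sqle* (41.5 ± 6.34) and *Fdft1* (39.8 ± 5.17 CPM per kb) followed, and their ranges over all 8 libraries overlapped. In exposed brains *Cyp51* was at 45.9 ± 1.08 and *Sqle* at 40.2 ± 1.52 CPM per kb. Differences between genes within the same libraries were not tested. *Dhcr7* (11.8 ± 0.829), *Lss* (9.32 ± 0.963) and *Idi1* (5.92 ± 0.744 CPM per kb) were the lowest. The lowest *Dhcr7* library (10.7 CPM per kb) was above the highest *Lss* library (10.1). The order of the 7 was the same in exposed brains, where the levels ran from 202 CPM per kb for *Hmgcs1* to 5.61 for *Idi1*. The lengths join the exons of all annotated transcripts, so these levels are lower limits where the shorter transcripts dominate. This can be the case for *Lss*, with 10787 bases of joined exon and a longest transcript of 4667. It can also be so for *Sqle* (5546 and 2758) and *Dhcr7* (5817 and 2815). The order of the 7 genes therefore depends on the length used.

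The other enzymes of the pathway were examined in the same fit. None of the other 13 passed the test at an adjusted or an unadjusted p under 0.05. Of the 20 enzymes, 17 had a negative log2 fold change and 3 a positive one, with a median of -0.03. Among the enzymes up to farnesyl diphosphate, *Acat2* (-0.02 ± 0.09, SE), which makes acetoacetyl-CoA, and the mevalonate enzymes *Mvk* (-0.05 ± 0.10), *Pmvk* (-0.02 ± 0.13) and *Mvd* (-0.05 ± 0.11) had log2 fold changes no larger than their errors. *Fdps*, the farnesyl diphosphate synthase, had 0.07 ± 0.19, but 91.4% of its longest transcript is shared with near-identical copies such as *Gm8163*, and its level of 4.09 CPM over all libraries is uncertain for that reason. For *Acat2*, 65.6% of the transcript is shared with *Acat3* or *Tcp1*.

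Among the 12 enzymes from squalene onward, the lowest unadjusted p-values were those of *Sc5d* and *Msmo1*, which act between lanosterol and cholesterol. *Sc5d* was at 81.7, 67.3, 73.9 and 84.6 CPM in controls and at 76.7, 58.1, 76.5 and 60.4 CPM in exposed brains, a log2 fold change of -0.18 (SE 0.10, 95% interval -0.39 to 0.03, unadjusted p = 0.0909 in edgeR's test). F1 50ppm replicates 2 and 4 were the low ones. *Msmo1* was at 92.6, 77.6, 86.2 and 86.7 CPM in controls and at 85.2, 62.1, 85.4 and 79.1 CPM in exposed brains (log2 fold change -0.14, SE 0.09). Replicate 2 was the lowest of the exposed brains for both. *Tm7sf2* (-0.04 ± 0.15), *Nsdhl* (-0.02 ± 0.12), *Hsd17b7* (0.01 ± 0.09) and *Ebp* (0.04 ± 0.12), which catalyse other steps after lanosterol, all had intervals that included 0 with all libraries. With F1 0ppm replicates 3 and 4 as the only controls all 20 enzymes had a negative log2 fold change (median -0.11) and none passed the adjusted threshold, while the interval of *Tm7sf2* then lay below 0 (-0.27, SE 0.12, 95% interval -0.53 to -0.01, unadjusted p = 0.0390 in edgeR's test). *Sc5d* was at -0.24 (SE 0.10, unadjusted p = 0.0335 in edgeR's test) without F1 0ppm replicate 2 and at -0.22 (SE 0.11, unadjusted p = 0.0541) with replicates 3 and 4 as the only controls.

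**Figure D2:**
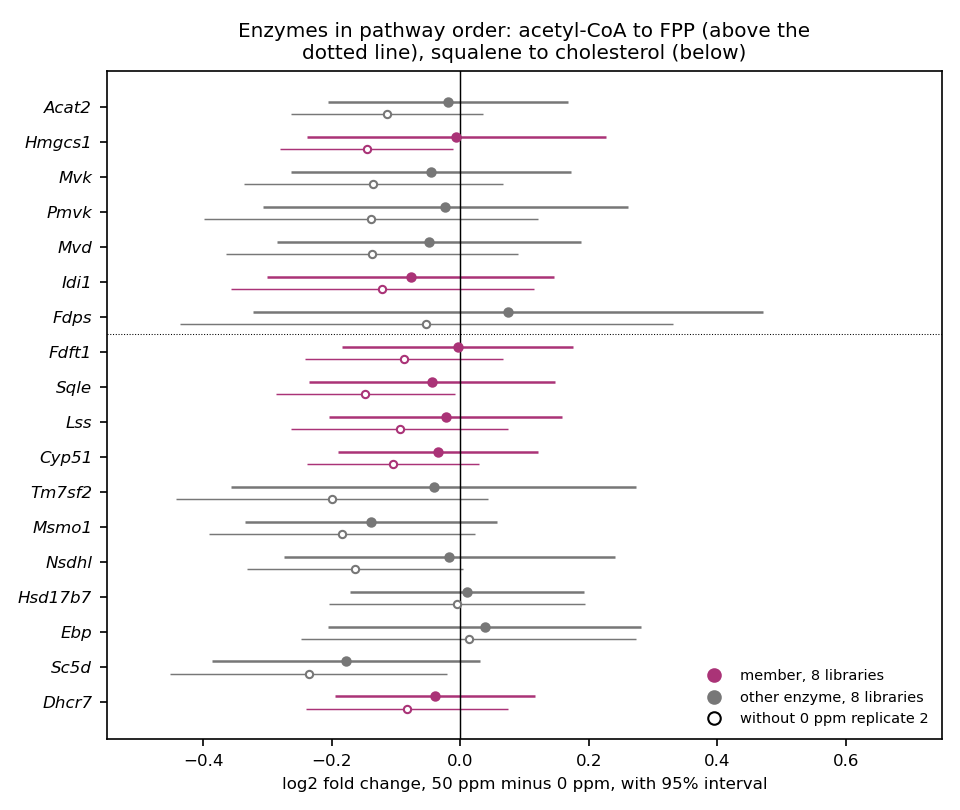
Log2 fold change of 50 ppm against 0 ppm (x axis) with its 95% interval for 18 enzymes of cholesterol synthesis in pathway order (y axis), from all 8 libraries (filled) and without F1 0ppm replicate 2 (open); the 7 members are purple. With all libraries every interval includes 0, and without that library the intervals of *Hmgcs1*, *Sqle* and *Sc5d* lie just below it.

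The spread among controls was the larger feature of these data. F1 0ppm replicate 2 was the lowest of all 8 libraries for 6 of the 7 members and for 14 of the 20 enzymes, against 14.7% of the 10330 genes with a mean of at least 10 CPM. *Fdps* (4.09 CPM) and *Ebp* (9.51 CPM), both lowest in this library, are below that level. Relative to the mean of the other 3 controls, the log2 ratio of this library was -0.18 to -0.66 for the members, with a median of -0.31, and was negative for all 20 enzymes. Over the 10330 genes the median of this log2 ratio was 0.00 and the 5th percentile was -0.35. *Hmgcs1* (-0.66), *Sqle* (-0.47) and *Fdft1* (-0.37) lay under this percentile, as did 11 of the 20 enzymes, *Fdps* among them. *Tm7sf2* (-0.78), *Nsdhl* (-0.71), *Fdps* (-0.61) and *Pmvk* (-0.54) were the lowest of the others, while *Hsd17b7* (-0.06) and *Ebp* (-0.10) were nearer to 0. In none of the other 7 libraries did a member lie under the 5th percentile of its own library. Of the 20 enzymes, 3 lay under it in F1 50ppm replicate 4, relative to the other exposed brains. In that library the log2 ratio was negative for 16 of the 20 enzymes and 6 of the 7 members. In F1 0ppm replicate 1 and in F1 50ppm replicate 2, 1 enzyme each lay under the percentile. The library had 26741649 counts, within the range of the others, and its TMM factor was 1.01.

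**Figure D3:**
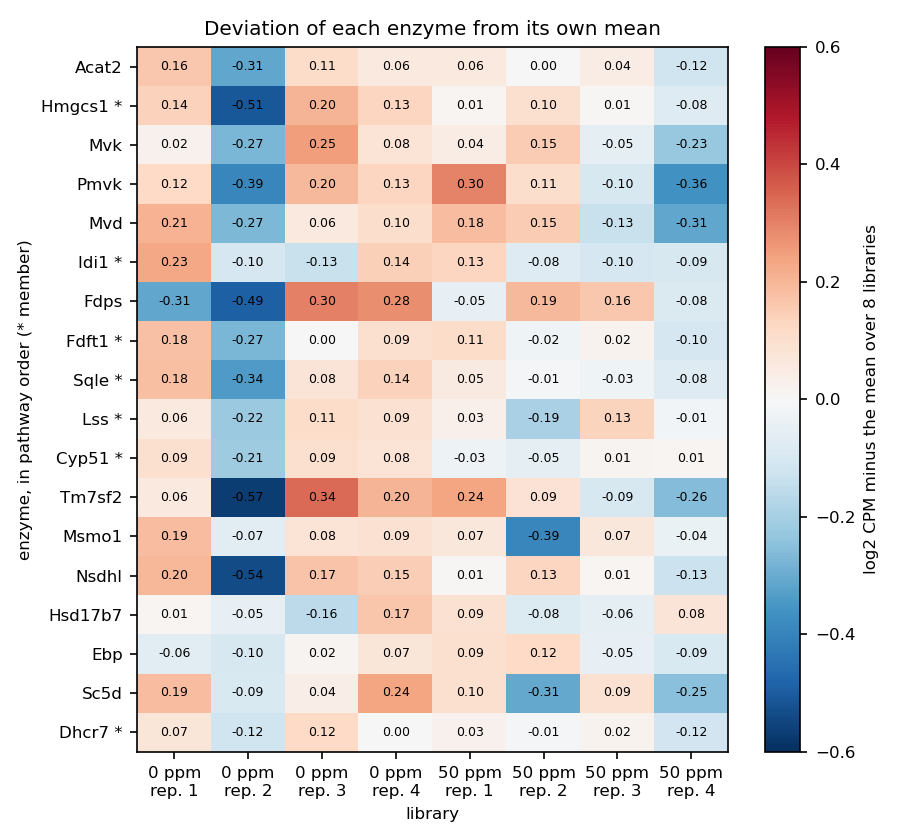
Log2 CPM of 18 enzymes (rows, in pathway order, members marked with an asterisk) in the 8 libraries (columns), each minus the mean of its row over the 8 libraries; red is higher and blue lower. The column of F1 0ppm replicate 2 is blue in all 18 rows, with -0.51 for *Hmgcs1*, which holds for no other column.

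The 7 genes varied together across libraries. Over the 8 libraries all 21 pairs of members had a positive Pearson correlation of log2 CPM, from 0.30 (*Idi1* and *Lss*) to 0.95 (*Fdft1* and *Sqle*), with a median of 0.74. Over the 7 libraries without F1 0ppm replicate 2 all 21 were still positive, with a median of 0.49. The 8 points of each correlation are the same libraries for every pair. No correlations over pairs of other genes are given beside these values, so how far they are particular to the members was not tested. Among the 10 other genes with the most similar pattern, of 14595 genes with a mean of at least 1 CPM, were *Acat2*, *D130043K22Rik*, *Zan*, *Mst1r*, *Dhx57*, *Wdr66*, *Dnah7a*, *Agrn* and *Mcts1*, with r between 0.94 and 0.97 to the mean standardized log2 CPM of the members. *Acat2*, at rank 1, is an enzyme of the pathway, and its r was 0.92 without F1 0ppm replicate 2. *Nsdhl* was at rank 21 and *Tm7sf2* at rank 106, with r of 0.76 and 0.62 without that library. *Ebp* (r = 0.36) and *Hsd17b7* (0.21) were among the least similar enzymes.

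The genes that control or use the pathway gave the following values. Of the 7 genes of SREBP control, none passed the adjusted threshold and 1 had an unadjusted p under 0.05. For 1 of the 7, *Scap*, the groups did not overlap, against 2.09% of all genes tested. It was at 111.03 to 118 CPM in controls and at 106 to 110.97 CPM in exposed brains (log2 fold change -0.07, SE 0.06). *Srebf2* was at 350.3, 266, 324 and 321 CPM in controls and at 303, 300.7, 329.9 and 272 CPM in exposed brains (log2 fold change -0.07, SE 0.08), and like most of the enzymes it was lowest in F1 0ppm replicate 2. *Srebf1*, which encodes the factor for fatty acid synthesis, was at 48.5, 59.5, 63.7 and 46.9 CPM in controls and at 48.7, 45.5, 51.5 and 42.7 CPM in exposed brains (log2 fold change -0.22, SE 0.10, unadjusted p = 0.0432, adjusted p = 0.999 in edgeR's test). The groups overlapped. *Insig1*, which holds SREBP in the endoplasmic reticulum and is itself an SREBP target, had a log2 fold change of -0.02 (SE 0.08) and was highest of the controls in replicate 2 (80.9 CPM).

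Of the 8 genes of sterol uptake and transport none had an unadjusted p under 0.05. The most abundant, *Lrp1*, a receptor for ApoE particles, had a log2 fold change of 0.00 (SE 0.08). Of the 10 genes of sterol efflux and turnover none passed the adjusted threshold and 2 had an unadjusted p under 0.05, both higher at 50 ppm. *Apoe*, the apolipoprotein of astrocyte particles, was at 356, 342, 398 and 353 CPM in controls and at 469, 493, 389 and 468 CPM in exposed brains, a log2 fold change of 0.33 (SE 0.08, unadjusted p = 0.000491, adjusted p = 0.366). Only F1 50ppm replicate 3 was within the range of the controls. *Lcat*, which esterifies cholesterol on these particles, was at 1.63 to 3.27 CPM in controls and at 2.96 to 3.86 CPM in exposed brains (log2 fold change 0.52, SE 0.20, unadjusted p = 0.0202, adjusted p = 0.999 in edgeR's test). None of the 8 genes of fatty acid synthesis had an unadjusted p under 0.05 with all libraries, and the most abundant, the desaturase *Scd2*, had -0.04 (SE 0.09). With F1 0ppm replicates 3 and 4 as the only controls, *Scd2* was at -0.18 (SE 0.08, unadjusted p = 0.0422) and the related desaturase *Scd1* at -0.37 (SE 0.13, unadjusted p = 0.00853), and neither passed the adjusted threshold of edgeR's test. Under the same controls *Apoe* was at 0.27 (SE 0.09), *Lcat* at 0.51 (SE 0.25) and *Srebf1* at -0.24 (SE 0.11), and the cholesterol exporter *Abcg1* was at -0.27 (SE 0.12, unadjusted p = 0.0335, adjusted p = 0.998). Without F1 0ppm replicate 2, *Srebf1* was at -0.17 (SE 0.11, unadjusted p = 0.122 in edgeR's test). None of the 6 genes of the isoprenoid branches did either (median log2 fold change 0.06).

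Markers of the cells that use or supply cholesterol are given beside these values. Of 15 oligodendrocyte markers, 10 had an unadjusted p under 0.05, all higher at 50 ppm, and 1, *Bcas1*, passed the adjusted threshold (log2 fold change 0.97, SE 0.15, adjusted p = 0.0375 in edgeR's test). The median log2 fold change of the list was 0.52, and its summed level was 188 to 242 CPM in controls and 239 to 340 CPM in exposed brains. *Mbp* (0.49, SE 0.10), which encodes a major myelin protein, did not pass the adjusted threshold (adjusted p = 0.290 in edgeR's test). Over all 23113 genes, 4 passed this threshold with edgeR and 22 with DESeq2. Which markers pass can therefore depend on the tool, and their calls with DESeq2 are not given here. Of 8 astrocyte markers, 5 had an unadjusted p under 0.05, none passed the adjusted threshold, and the median was 0.42, with *Aqp4* at 0.71 (SE 0.15). Their summed level was 872 to 1120 CPM in controls, lowest in F1 0ppm replicate 2, and 1125 to 1356 CPM in exposed brains. The 8 oligodendrocyte progenitor markers had a median of 0.06 and none with an unadjusted p under 0.05. An unadjusted p under 0.05 was also found for 2 of 7 neuron and 3 of 7 microglia markers and 2 of 6 meninges markers, all higher at 50 ppm, for 1 of 7 radial glia and dividing cell markers and 4 of 8 forebrain markers, all lower, for all 7 hindbrain and spinal cord markers, all higher, and for none of 7 endothelium markers. With F1 0ppm replicates 3 and 4 as the only controls, the median was 0.35 for the oligodendrocyte markers, of which 7 of 15 had an unadjusted p under 0.05, and 0.27 for the astrocyte markers, of which 4 of 8 did, all higher at 50 ppm. Without F1 0ppm replicate 2 the medians were 0.50 (10 of 15) and 0.33 (4 of 8). No marker of either list, *Bcas1* included, passed the adjusted threshold in these comparisons. The difference between these lists and the cholesterol synthesis genes was not tested, and neither was the part of cell or region content in the enzyme levels. F1 0ppm replicates 3 and 4 had summed hindbrain markers (41.7 and 42.7 CPM) within the range of the exposed brains (36.5 to 113 CPM). Their forebrain markers summed to 493 and 628 CPM, against 592 to 713 CPM in exposed brains. With these as the only controls, 3 of 7 hindbrain markers still rose at an unadjusted p under 0.05 (median log2 fold change 0.59). Of 8 forebrain markers, 2 rose and 3 fell at that threshold. The members then had a median log2 fold change of -0.11, and all 7 were negative (*Idi1* -0.04, *Fdft1* -0.05, *Dhcr7* -0.08, *Cyp51* -0.11, *Lss* -0.11, *Sqle* -0.13 and *Hmgcs1* -0.16). Of the members 1 of 7 (*Hmgcs1*) had an unadjusted p under 0.05, against 2.04% of all genes that fell at that threshold. Without F1 0ppm replicate 2 the median was -0.10 and 2 of 7 members (*Hmgcs1* and *Sqle*) had such a p, against 1.35% of all genes that fell at that threshold. That library was low for these same genes, and leaving it out moves their log2 fold changes down. The number of members with such a p is therefore no independent sign of a difference. No member passed the adjusted threshold in either comparison.

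**Figure D4:**
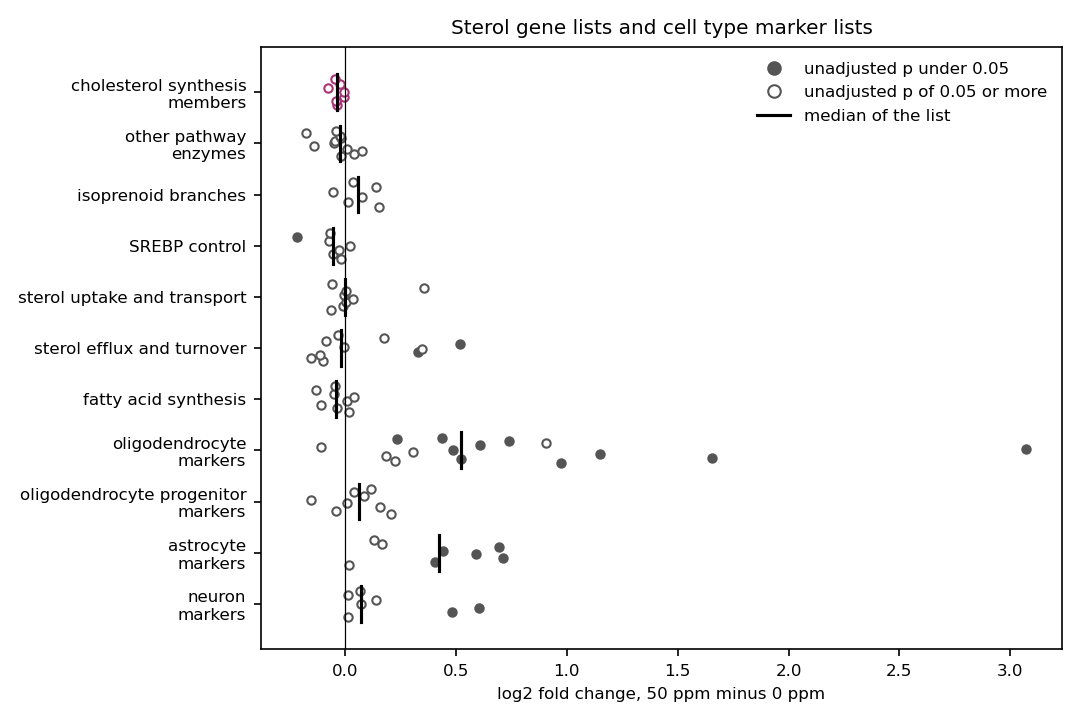
Log2 fold change of 50 ppm against 0 ppm (x axis) for genes of the sterol lists (11 of the 13 other pathway enzymes) and of the cell type marker lists (y axis), with the median of the plotted genes as a bar; filled points have an unadjusted p under 0.05. The 7 members sit between -0.08 and 0.00, while the medians of the oligodendrocyte and astrocyte markers are 0.52 and 0.42.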

How the data were processed

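For each of the 8 libraries the authors deposited whole-number counts of reads per gene, made with STAR and HTSeq according to the submitters' notes, on the C57BL/6J genome (GRCm38); the versions and the strand setting are not given in the sources used here. A second count table, on the CAST/EiJ genome, was not used here, because its identifiers could not be matched to these genes. A gene was tested only if at least 3 of the 8 libraries had a count for it. The counts were normalized by TMM and tested with edgeR 4.0.16 (R 4.3.3; glmQLFit and glmQLFTest, treatment only), with Benjamini-Hochberg adjustment over 23113 genes and a threshold of 0.05. Intervals come from the same fit. The exact permutation test used log2 CPM with a prior count of 2. The steps were tested on simulated data. Alternatives were DESeq2 1.42.0, its size factors, no filter, at least 10 counts in 4 libraries, a robust fit, limma-voom (limma 3.58.1), a prior count of 0.5 and leaving out each library. Using F1 0ppm replicates 3 and 4 as the only controls was added after seeing the data. Symbols came from Ensembl tables (49326 of 49585 identifiers), coordinates and exon lengths from GENCODE for GRCm38, shared transcript sequence from BLAST 2.17.0 and promoters from RefSeq. The genes and lists were chosen with earlier results of these data known. Named genes are the 7 members, the other pathway enzymes, genes of the sterol lists with an unadjusted p under 0.05 (or the most abundant gene), up to 3 such genes per marker list, and the 10 genes of most similar pattern, of which a few are not reported here. *Srebf2*, *Insig1*, *Scap*, *Scd1*, *Abcg1* and *Ctsb* fall outside this rule and were added once their values were known. In each of the 12 pairs of replicates, counts differed by more than sampling noise (chi-square of 8.67 to 21.1 per degree of freedom).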

Additional observations from a re-analysis of the deposited data

Results flagged for a closer look

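In 46 groups of 4 libraries (the 20 enzymes and 3 sterol genes, in each dose), 6 had a library whose gap to the nearest other exceeded Dixon's 95% critical value, where chance gives about 1 in 20 groups. In 5 of them F1 0ppm replicate 2 was the low library. It had 648 CPM of *Hmgcs1* against 1005 to 1060 CPM in the other 3 controls, 22.3 CPM of *Pmvk* against 31.7 to 33.4, 85.1 CPM of *Lss* against 104 to 107, 177 CPM of *Cyp51* against 217 to 219, and 39.4 CPM of *Nsdhl* against 63.1 to 65.6. The 6th was F1 50ppm replicate 1, high for *Idi1* with 22.0 CPM against 18.8 to 19.1 CPM. The groups share libraries and the genes vary together, so these are not independent flags.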

How the results depend on the processing

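No member and no enzyme of the pathway passed the adjusted threshold under any of the 15 alternatives, where the lowest adjusted p of a member was 0.992. With any other tool, normalization or filter and all 8 libraries, all 7 log2 fold changes stayed negative. Leaving out 1 library in turn moved them from -0.15 to 0.062 for *Hmgcs1*, -0.13 to -0.01 for *Idi1*, -0.087 to 0.057 for *Fdft1*, -0.15 to 0.011 for *Sqle*, -0.094 to 0.035 for *Lss*, -0.10 to -0.01 for *Cyp51* and -0.08 to 0.00 for *Dhcr7*, and their median from -0.10 to -0.01, so the sign of *Hmgcs1*, *Fdft1*, *Sqle* and *Lss* depends on single libraries. Members with an unadjusted p under 0.05 numbered 0 to 2 (2 without F1 0ppm replicate 2), enzymes 0 to 3, and genes of the other sterol and lipid lists 1 to 3 (1 without F1 50ppm replicate 1). With F1 0ppm replicates 3 and 4 as the only controls these counts were 1, 2 and 5. With limma-voom 1 enzyme, *Sc5d*, had such a p. In edgeR's test *Sc5d* also had one without F1 50ppm replicate 1 (-0.24, unadjusted p = 0.0348) and without F1 50ppm replicate 3 (-0.23, unadjusted p = 0.0446). It had none without F1 50ppm replicate 2 (-0.11, unadjusted p = 0.296) or replicate 4 (-0.13, unadjusted p = 0.259) in edgeR's test. The same held without F1 0ppm replicate 1, 3 or 4. Without a filter 1 gene of the sterol and lipid lists, *Apoe*, passed the adjusted threshold (adjusted p = 0.0439 in edgeR's test, against 0.366). The cause of these shifts was not tested. A fit to the C genome was not run. No paired analysis was possible because the labels give no replicate numbers, and the numbers used here only name pups of different litters. With 4 pups per group, and standard errors of 0.07 to 0.11 on the log2 scale for the members, the width of each gene's own interval limits what could be detected for it.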
